A study of Homo sapiens with 7 samples.

Results

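The genes for the proteins of the small subunit of the cytosolic ribosome were followed through 4 lists of N6-methyladenosine (m6A) peaks from HEK-293T cells. Members were the protein-coding genes whose symbol is RPSA, or RPS followed by a number and at most 1 of the letters A, X and L. The RefSeq gene table holds 32 such genes among 20056 protein-coding genes, and all 32 were kept in every count, with 0 where no peak was listed. The list includes RPS27L, a paralog of RPS27 induced by p53, and leaves out pseudogenes and mitochondrial ribosomal proteins. HEK-293T is a human embryonic kidney line that carries the SV40 large T antigen, and all samples come from this 1 line.

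The series set an antibody method beside a chemical method. In MeRIP, fragmented polyA RNA was captured with an anti-m6A antibody (replicates 1 and 2). In m6A-ORL, fragments were passed through NO/O2, TDO and a probe called BA, pulled down on streptavidin and released with DTT. Replicate 1 of m6A-ORL was made from total RNA and replicate 2 from polyA RNA according to the labels, so RNA type and replicate cannot be told apart within m6A-ORL. No label says whether the replicates came from separate cultures, so spreads and p-values refer to these libraries only.

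Ribosomal protein mRNAs are among the most abundant of growing cells. They are short, stable and highly translated, and they begin with a 5' terminal oligopyrimidine (TOP) tract, a stretch of C and T bases at the transcription start through which mTOR signalling and LARP1 control their translation. In mRNA, m6A is deposited by the METTL3-METTL14 complex, mostly in long exons and near stop codons, and it is known for marking transcripts for faster decay. Ribosomal protein genes also have large families of processed pseudogenes, copies inserted elsewhere in the genome, and several carry small nucleolar RNA (snoRNA) genes in their introns.

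Because many of the peaks lay at the start of the gene, the start windows of the members are shown first. RefSeq windows (GRCh38.p14) matched 25 of the 32 members by symbol. The sequences below run 5' to 3' on the transcribed strand, from 10 bases before the annotated start to 20 bases after it, with the longest run of C and T bases in capitals. The 5 at the top are the best-ranked of the 6 members described in full below that had a peak on the first 50 bases of the gene. RPS15, the sixth of them, is not shown, and the last 2 had no peak in any list and were added after the values were seen for contrast.
RPS21 (chr20:62387093-62387122, plus strand): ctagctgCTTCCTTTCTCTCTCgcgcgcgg
RPS4X (chrX:72277229-72277258, minus strand): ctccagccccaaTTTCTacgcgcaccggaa
RPS28 (chr19:8321486-8321515, plus strand): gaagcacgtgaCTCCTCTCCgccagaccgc
RPS13 (chr11:17077648-17077677, minus strand): ctctcgCTCTCCTTTCgttgcctgatcgcc
RPS24 (chr10:78033853-78033882, plus strand): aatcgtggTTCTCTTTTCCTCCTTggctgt
RPS27 (chr1:153990752-153990781, plus strand): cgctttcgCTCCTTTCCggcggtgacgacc
RPS7 (chr2:3575250-3575279, plus strand): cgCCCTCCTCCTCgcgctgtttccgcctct

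A run of at least 7 bases, each C or T, lay within 15 nt of the annotated start in 21 of the 25 members. The share was 19.8% of all 27305 RefSeq start windows, 1 per gene and not limited to protein-coding genes. The run was there in 10 of the 12 members with a window and a peak on the first 50 bases, and in 11 of the 13 members without such a peak. GGAC, the core of the favoured m6A sequence, was found on the transcribed strand within the first 50 bases in 3 of the 25 (RPS7, RPS10 and RPS28) against 18.8% of all windows, and the longer GGACT, which contains it, in 0 against 4.87%. The run of C and T bases was thus shared by members with and without a peak at the start. The count did not require the run to begin at the first base, so TOP tracts as such were not measured.

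MeRIP listed almost none of these genes and m6A-ORL listed most of them. A peak was present for 2 of 32 members in each MeRIP list, where 38.6% (replicate 1) and 37.8% (replicate 2) of all protein-coding genes had one. In m6A-ORL a peak was present for 19 of 32 in the total RNA library and 19 of 32 in the polyA library, where the background was 26.3% and 19.5%. The means were 2 ± 0 members by MeRIP and 19 ± 0 by m6A-ORL (SD, n = 2 libraries each). The difference was 17 members (exact permutation test, two-sided p = 0.333, which is the lowest value possible with 4 libraries). For m6A-ORL the SD of 0 reflects equal counts and not the same genes, since the libraries, of unlike RNA type, shared 13 members. The polyA m6A-ORL library alone exceeded both MeRIP libraries, also made from polyA RNA, by the same 17 members.

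**Figure D1:**
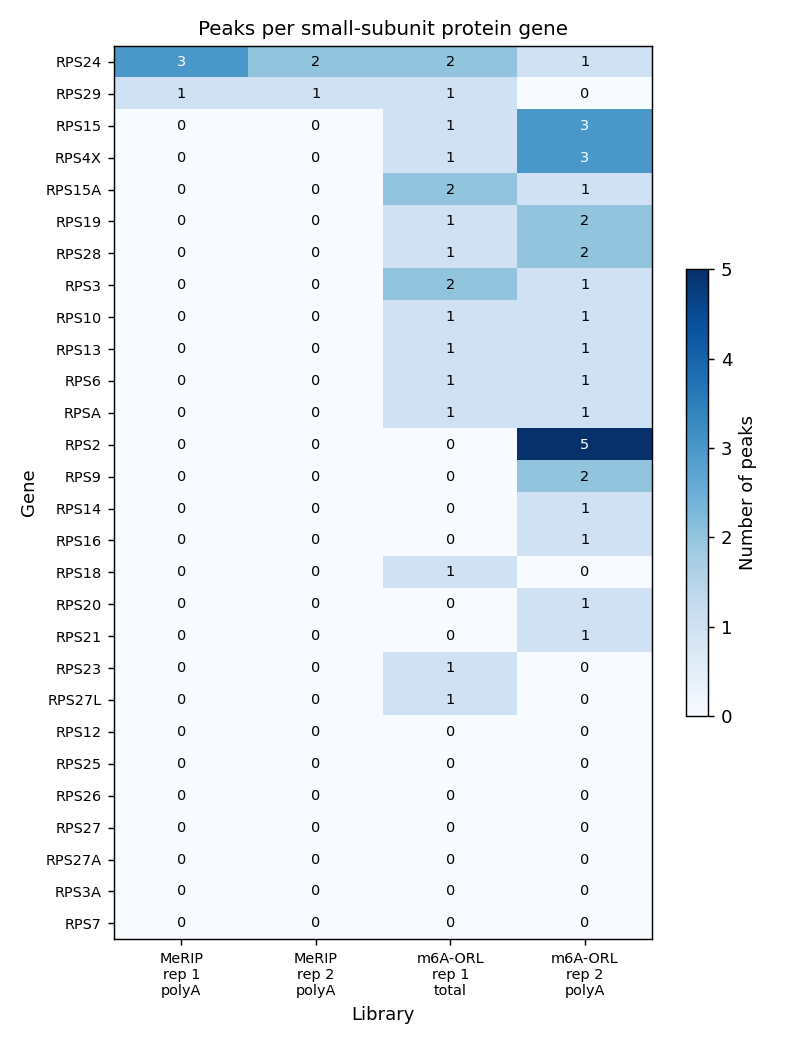
Number of peaks (colour and printed digit) in each of 28 of the 32 genes (rows) and 4 libraries (columns), ordered by the number of libraries with a peak and then by the total number of peaks. The MeRIP columns are filled only for RPS24 and RPS29, while the m6A-ORL columns are filled for 15 (total RNA) and 17 (polyA) of the genes shown and the 7 bottom rows are empty.

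Peaks in both libraries of a method were listed for 2 members by MeRIP, RPS24 and RPS29, against 35.7% of all protein-coding genes. By m6A-ORL they were listed for 13 members against 11.8%. Of these 13, 12 had no MeRIP peak, a pattern seen in 1.52% of protein-coding genes, and the reverse (both MeRIP lists, no m6A-ORL peak) was seen in 0 members against 11.4%. The members have a median genomic span of 4769 nt against 24093 nt for all protein-coding genes. Among the 10753 protein-coding genes with a span no longer than the longest member's (27723 nt), 31.8% had peaks in both MeRIP libraries. In both m6A-ORL libraries 11.5% of them had peaks. That limit lies above the median span of all protein-coding genes, so these genes are not matched in span to the members. The part of gene or transcript length in the result was not tested. Transcript abundance was not measured in these lists, and its part in the result was not tested.

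The members' peaks numbered 4 of 20760 in MeRIP replicate 1 (0.0193% of the list, exact Clopper-Pearson 95% interval 0.00525 to 0.0493) and 3 of 20216 in replicate 2 (0.0148%, 0.00306 to 0.0434). They numbered 23 of 11022 in m6A-ORL replicate 1 (0.209%, 0.132 to 0.313) and 30 of 7661 in replicate 2 (0.392%, 0.264 to 0.559). The intervals cover counting error only and treat peaks as independent, although RPS2 alone gave 5 of the 30. They do not measure the spread between libraries, so they do not test the methods against each other. The m6A-ORL lists were shorter but held more peaks in these genes in absolute number, 26.5 ± 4.95 against 3.5 ± 0.707 per library (SD, n = 2; exact two-sided permutation p = 0.333).

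RPS24 was the sole member with a peak in all 4 lists, where 9.79% of protein-coding genes had one. It encodes a protein that is mutated in some patients with Diamond-Blackfan anaemia, an inherited failure of red cell production, and whose mRNA is alternatively spliced at its 3' end. RPS24 (ENSG00000138326.20, hg38 chromosome 10, 78033863 to 78056806, plus strand) had 3 peaks in MeRIP replicate 1, 2 in MeRIP replicate 2, 2 in m6A-ORL replicate 1 and 1 in m6A-ORL replicate 2. The MeRIP libraries placed a peak at 78035683 to 78035833 in replicate 1 and at 78035713 to 78035833 in replicate 2, and another at 78054594 to 78054774 in both. The second of these carried weak scores, with ranks of 17867 of 20760 and 15256 of 20216. A further peak of MeRIP replicate 1, at 78037217 to 78037367, lay wholly within the second block of the polyA m6A-ORL peak (78036463 to 78037367, 2 blocks). That was the only place in any member where a MeRIP peak and an m6A-ORL peak overlapped. The total RNA library had its peaks elsewhere, over the gene start (78033820 to 78034030) and across a splice junction between 78040576 and 78048989.

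RPS29, a zinc-binding protein of the head of the subunit, had 1 peak in each MeRIP list, 1 in the total RNA library and 0 in the polyA m6A-ORL library. Its MeRIP peaks (ENSG00000213741.10, chromosome 14, 49577453 to 49577722 and 49577482 to 49577692) lay with most of their bases on RPL32P29, a pseudogene of a large-subunit protein inside the RPS29 span, and a second Ensembl ID was listed over the same bases in both libraries. Without peaks on a pseudogene, RPS24 was the only member listed by MeRIP, and the number listed by m6A-ORL stayed at 13. The m6A-ORL peak of RPS29 lay at another place and crossed a splice junction (49586350 to 49598450).

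The members described next were chosen by the best rank of their peaks within a list, except RPS3, which is set beside RPS2 and RPS9. Scores are the authors', read as p-values or q-values, and are used here only to rank peaks within a list. RPS2, which lines the entry of the mRNA channel, had 0 peaks in both MeRIP lists, 0 in the total RNA library and 5 in the polyA m6A-ORL library, the most of any member in 1 library. Its best peak (ENSG00000140988.16, chromosome 16, 1964244 to 1964483) ranked 50 of 7661, with a score of 5e-43, and another near the end of the gene (1962118 to 1962356) ranked 221, of whose 239 bases 23 lay on the snoRNA gene SNORA10. The remaining 3 ranked 1926, 3671 and 7467.

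RPS9, also at the mRNA entry, had 0 peaks in 3 lists and 2 in the polyA m6A-ORL library (ENSG00000170889.14, chromosome 19). The peak over the end of the gene (54207335 to 54231756, in 2 blocks) ranked 149 and ran past the annotated gene end at 54207647, and the other (54201573 to 54201693) ranked 830. RPS3, the remaining protein of the entry channel, had 0 and 0 MeRIP peaks, 2 peaks in the total RNA library and 1 in the polyA library. The m6A-ORL peaks of RPS3 ranked 4197 and 6536 of 11022 and 5593 of 7661, and the polyA peak lay over the gene start while the middles of the others lay 5358 and 6150 nt inside the gene.

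RPS21, a small protein of the subunit, had 1 peak, in the polyA m6A-ORL library. It ran over 3 blocks from the annotated first base (chromosome 20, 62387103 to 62387662) and ranked 120, the sequence shown above being at its 5' edge. RPS4X, whose gene is X-linked and escapes X inactivation, had 0 and 0 MeRIP peaks, 1 peak in the total RNA library and 3 in the polyA library. The total RNA peak (chromosome X, 72275709 to 72277248, 3 blocks, score 1.6e-70, rank 222 of 11022) also began at the annotated first base. The polyA peaks lay toward the 3' part of the gene, at 72272533 to 72272742, 72273821 to 72274001 and 72274120 to 72274210, with ranks of 264, 161 and 6465 of 7661. The 2 m6A-ORL libraries thus marked opposite parts of RPS4X.

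RPS28, a small protein of the head, had 1 peak in the total RNA library and 2 in the polyA library (ENSG00000233927.5, chromosome 19). The total RNA peak (8321218 to 8321397, rank 730) carried the gene's ID but lay wholly before the RefSeq start at 8321496, whereas the polyA peaks covered the start (8321486 to 8321819, 2 blocks, rank 369) and the gene body (8321968 to 8322177, rank 1272). RPS15, whose tail reaches toward the decoding site, had 1 peak in the total RNA library, over the start (1438358 to 1438536, rank 693), and 3 in the polyA library, at 1438744 to 1438951, 1440079 to 1440197 and 1440346 to 1440464 on chromosome 19. No peak of the total RNA library touched a polyA peak in either gene.

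RPS13 was among the 2 members in which the m6A-ORL libraries overlapped. In RPS13 (ENSG00000110700.7, chromosome 11, minus strand) the total RNA peak at 17077417 to 17077715 (rank 780) and the polyA peak at 17077120 to 17077477 (rank 484) shared 61 nt near the gene start. RPS6, the substrate of the S6 kinases downstream of mTOR, had 1 peak in each m6A-ORL library, at 19376834 to 19378421 (2 blocks, rank 6007 of 11022) and at 19376311 to 19376685 (2 blocks, rank 805 of 7661) on chromosome 9, with no shared base.

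Further members with peaks in both m6A-ORL libraries were RPS10, RPS19, RPS15A and RPSA. RPS10 is ubiquitinated by ZNF598 when ribosomes collide, RPS19 is the gene most often mutated in Diamond-Blackfan anaemia, and RPSA is also known as the laminin receptor. None of the 4 had a MeRIP peak. RPS10 and RPSA had 1 and 1 peak in the total RNA and polyA libraries, RPS19 1 and 2, and RPS15A 2 and 1. In RPS10 the total RNA peak lay over the start and the polyA peak inside the gene, and in RPS19 a polyA peak lay over the start and the total RNA peak inside. The RPS10 peaks are uncertain, since a second ID, assigned to the readthrough gene RPS10-NUDT3, also had peaks there in both m6A-ORL libraries. In the total RNA library its peak covered that of RPS10 (rank 956 of 11022). In the polyA library the spans of the 2 peaks overlapped (rank 1132 of 7661), and their shared bases were not counted.

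A further 11 members had a peak in exactly 1 library, always m6A-ORL. In the total RNA library they included RPS18, RPS23 and RPS27L, with 1 peak each. RPS23 sits at the decoding centre and RPS18 in the head. The RPS27L peak had the poorest score of the member peaks in that library, with rank 10098 of 11022. In the polyA library they were RPS2 and RPS9, described above, with RPS14, RPS16, RPS20 and RPS21, which had 1 peak each. RPS14 is the gene whose loss underlies the anaemia of the 5q deletion syndrome, RPS16 reaches toward the tRNA in the P site, and RPS20 is, like RPS10, a target of ZNF598. Adding RPS29, each m6A-ORL library thus had 6 members that the other lacked.

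The 7 members with no peak in any list were RPS3A, RPS7, RPS12, RPS25, RPS26, RPS27 and RPS27A, against 51.5% of protein-coding genes with none. RPS27A is made as a fusion with ubiquitin, RPS26 and RPS7 are mutated in some patients with Diamond-Blackfan anaemia, and RPS25 is needed by several viral internal ribosome entry sites. Their median span was 2996 nt, and that of the 25 members with a peak 5207 nt. They had a median of 30 named pseudogenes in RefSeq, and the members with a peak had 10. The handling of multi-mapping reads is not stated, and its part in the missing peaks was not tested.

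Sharing of the gene but not of the position was the pattern of the m6A-ORL libraries. Of the 13 members with peaks in both, 2 had overlapping peaks (at least 1 nt on the same strand), whereas 45.0% of the 2370 protein-coding genes with peaks in both had them. By peaks, 2 of 23 in the total RNA library were overlapped in the polyA library, and 2 of 30 the other way. The MeRIP libraries overlapped in both of their members, as 98.4% of protein-coding genes with peaks in both did. Between methods, 1 member, RPS24, overlapped between MeRIP replicate 1 and the polyA library, and 0 of 2 members did between either MeRIP library and the total RNA library, where 81.5% and 80.8% of the protein-coding genes with peaks in both lists overlapped (67.2% and 66.8% for MeRIP replicates 1 and 2 with the polyA library). With 1 or 2 members to compare, the between-method counts set no rate.

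**Figure D2:**
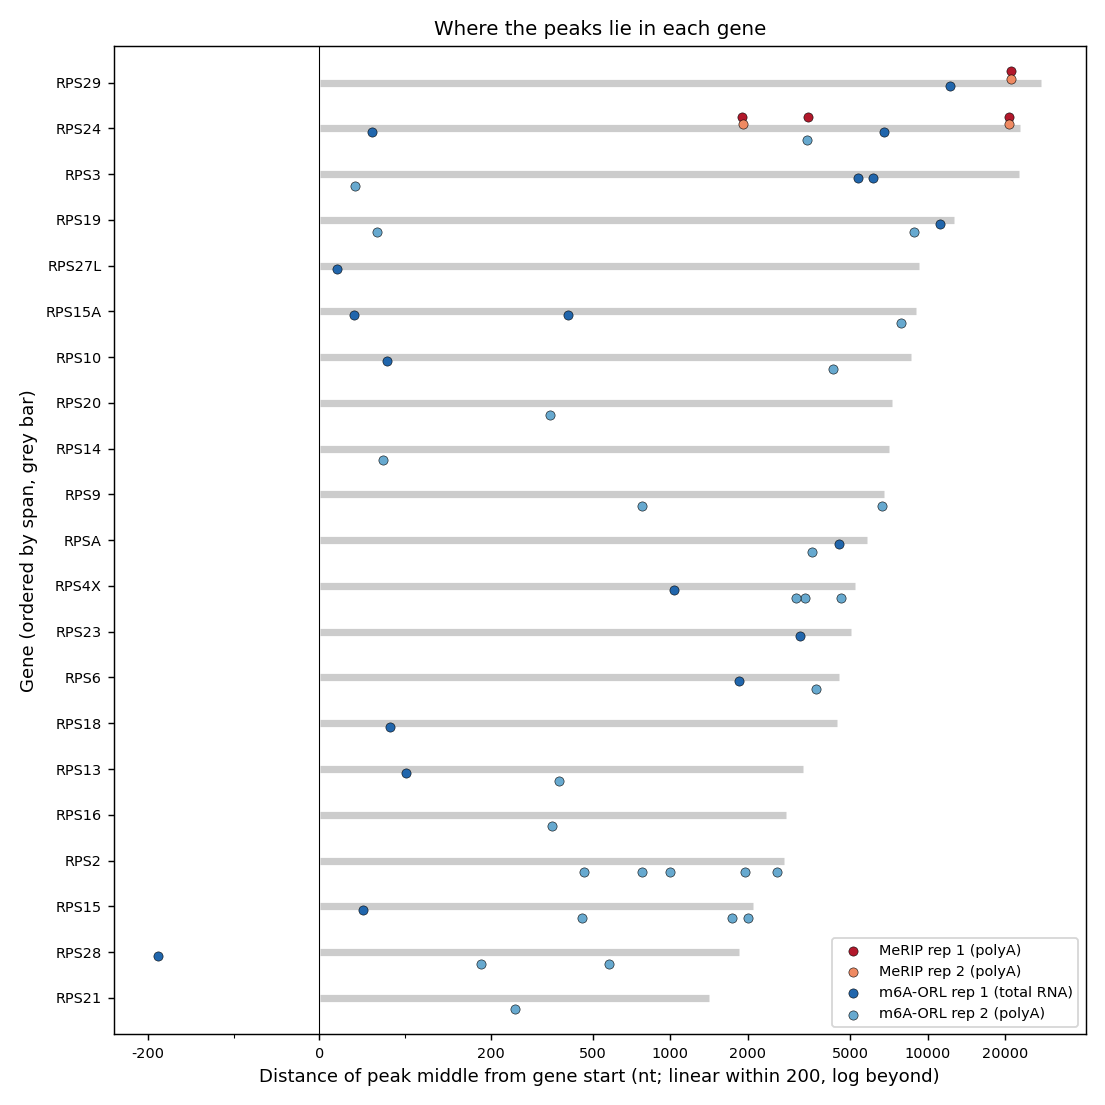
Distance of the middle of each peak from the annotated gene start in nt (x axis, linear near 0 and logarithmic beyond) for 21 of the 25 genes with a peak (y axis, ordered by span, grey bars), with 1 point for each of 53 peaks coloured by library. Total RNA and polyA points of m6A-ORL seldom coincide, and the 7 MeRIP points lie in RPS24 and RPS29.

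Peaks over the start of the gene were common in m6A-ORL. A base on the first 50 bases of the gene was covered by 8 of 23 member peaks in the total RNA library (11.1% of peaks in all protein-coding genes, 15.6% in genes no longer than the longest member) and by 6 of 30 in the polyA library (6.84% and 8.22%). The 8 were in RPS4X, RPS10, RPS13, RPS15, RPS15A, RPS18, RPS24 and RPS27L, and the 6 included RPS3, RPS14, RPS19, RPS21 and RPS28. No member had such a peak in both libraries. MeRIP had 0 of 4 (background 7.01%) and 0 of 3 (7.19%). Peaks began exactly at the annotated first base in RPS4X, RPS10 and RPS18 in the total RNA library and in RPS14 and RPS21 in the polyA library.

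Measured by the middle of the peak, 9 of 23 total RNA peaks (background 12.7%) and 6 of 30 polyA peaks (background 11.3%) lay within 300 nt of the gene start, against 0 of 4 and 0 of 3 by MeRIP (background 7.69% and 7.72%). In genes no longer than the longest member, the background was 17.5% for total RNA, 12.7% for polyA m6A-ORL, and 9.61% and 9.75% for MeRIP. The difference between the methods in the share of member peaks was 29.6 percentage points (exact two-sided permutation p = 0.333). It rested on 7 MeRIP peaks in 2 long genes, and with the first 10% of the gene span in place of 300 nt it was 0.906 points (exact permutation p = 1.0). Within 300 nt of the gene end lay 2 of 23 total RNA peaks (background 4.85%), 3 of 30 polyA peaks (4.86%), and 0 of 4 (5.03%) and 0 of 3 (4.96%) MeRIP peaks. More than 1 block, the sign of a peak across a splice junction, was seen in 7 of 23 total RNA peaks (background 10.5%) and 9 of 30 polyA peaks (27.9%). Exon annotation was not used here, so peaks without a junction were not assigned to exons or introns.

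**Figure D3:**
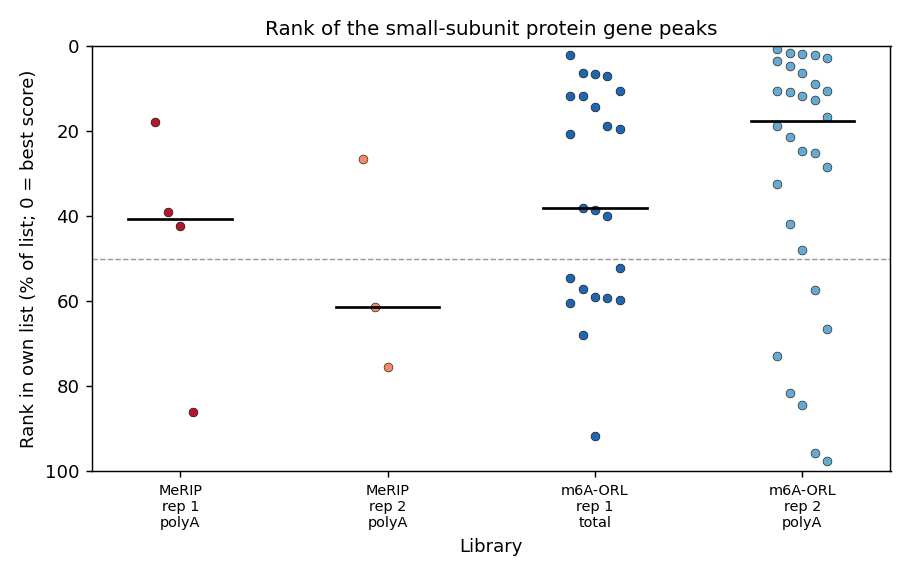
Rank of each member peak in its own list as a percent of the list (y axis, 0 is the best score; points are peaks, the black bar is their median, the dashed line the middle of the list) for the 4 libraries (x axis). The polyA m6A-ORL peaks have a median of 17.7%, and those of the total RNA library 38.1%.

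The m6A-ORL peaks of these genes had good scores for their lists. The median rank was 17.7% of the list in the polyA library (range 0.653 to 97.5) and 38.1% in the total RNA library (2.01 to 91.6), against 49.2% and 51.9% for peaks of all protein-coding genes. In the better-scored 50% of the list were 23 of 30 polyA peaks (background 50.8%) and 14 of 23 total RNA peaks (48.3%). For MeRIP they were 3 of 4 (52.0%) and 1 of 3 (51.9%). Median peak width was 179 nt in the polyA library and 150 nt in the total RNA library, where all protein-coding peaks had 150 nt in each. Scores can depend on read depth over a gene, which the lists do not give.

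snoRNA genes lie within 9 of the 32 members. In RPS12 the total RNA library had a strong peak (132816802 to 132816877 on chromosome 6, score 1.6e-50, rank 284) whose 76 bases all lay on SNORD100, and it was not counted for RPS12. Removing every peak that touched a snoRNA took 1 member from the total RNA list and left the 13 members of both m6A-ORL libraries in place.

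Pseudogenes of the members were listed mainly from total RNA. RefSeq names 693 pseudogenes after the members, and peaks lay on 59 of them in the total RNA library, 7 in the polyA m6A-ORL library, and 12 and 13 in the MeRIP libraries, counted on either strand and under any ID. The share over all RefSeq pseudogenes was not counted, so whether this is particular to the members' pseudogenes is not known. The counts take in RPSAP52, annotated over 65758020 to 65826974 on chromosome 12, so not every one is a short copy. RPS2 had 0 peaks of its own in the total RNA library, where 12 of its 55 pseudogenes had one. In the polyA m6A-ORL library 0 of the 55 did and RPS2 had 5. RPSA had 1 peak in the total RNA library and 11 of its 74 pseudogenes had one. Of the 19 members with a total RNA peak, 13 had a pseudogene with one, and of the 13 members without, 9 did, among them RPS27A (4 of 20), RPS3A (3 of 54), RPS27 (2 of 30), RPS7 (2 of 15) and RPS26 (1 of 59), which had no peak in any list. Reads of a gene and its near-identical copies can be shared, so the peak counts of these members, and RPS2 in particular, are uncertain.

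Genes for the partners of the small subunit were listed more often by MeRIP. Of 52 large-subunit protein genes 15 and 14 had a MeRIP peak, and 26 and 30 an m6A-ORL peak (total RNA and polyA). The 52 include the paralogs RPL3L, RPL7L1, RPL10L, RPL22L1, RPL26L1 and RPL39L. Of these, RPL3L had 1 and 1 MeRIP peaks, RPL7L1 had 3 and 2, and the others had 0. Peaks in both MeRIP libraries were present for 14 of the 52 and in both m6A-ORL libraries for 21. The large-subunit share in the polyA m6A-ORL library was 57.7%, beside 59.4% for the small subunit, while the MeRIP shares were 28.8% and 26.9% beside 6.25%. RPL28 had 4 and 3 MeRIP peaks and RPL37 had 3 and 3, and the small-subunit gene nearest to them was RPS24 with 3 and 2. The difference between the lists was not tested, since genes are not replicates.

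Of 28 mitochondrial small-subunit protein genes, which are translated in the cytosol and share the name pattern, 13 and 11 had a MeRIP peak and 15 and 9 an m6A-ORL peak. Peaks in both m6A-ORL libraries and none by MeRIP were found for 0 of these 28 genes, 12 of the 52 large-subunit genes and 12 of the 32 small-subunit genes. Among 36 translation factors and other TOP genes, 16 and 15 had a MeRIP peak, 21 and 25 an m6A-ORL peak, and 8 had peaks in both m6A-ORL libraries and none by MeRIP. In this list PABPC1, the poly(A)-binding protein, had 3 and 3 m6A-ORL peaks and 0 by MeRIP, and EEF2, the translocation factor, had 3 peaks in each MeRIP list, 1 in the total RNA library and 5 in the polyA m6A-ORL library. RACK1 and FAU, whose products are also parts of the small subunit but whose symbols fall outside the rule, had 1 and 0, and 1 and 1, MeRIP peaks, and 1 and 2, and 2 and 2, m6A-ORL peaks.

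**Figure D4:**
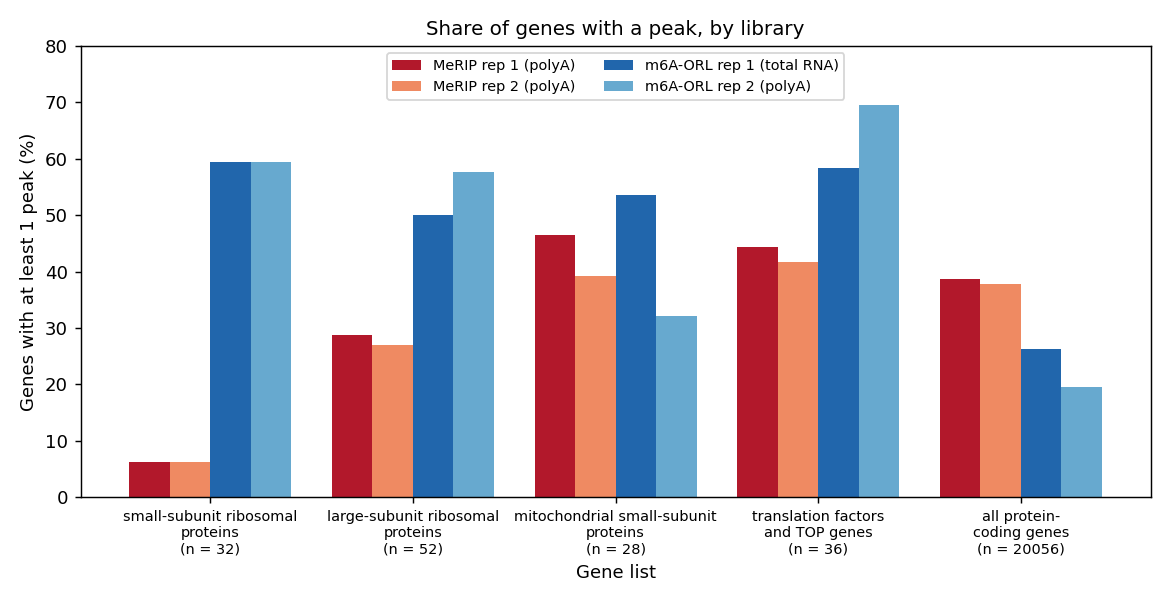
Percent of genes with at least 1 peak (y axis) in each of the 4 libraries (bars) for the small-subunit proteins, 3 comparison lists and all protein-coding genes (x axis, number of genes in parentheses). The small-subunit MeRIP bars stand at 6.25% and its m6A-ORL bars at 59.4%, and over all protein-coding genes the order is the reverse, 38.6% and 37.8% against 26.3% and 19.5%.

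The lists hold no expression values, so the cell line could not be checked by marker levels. Of 15 markers of other cell types, 3 had a peak in each MeRIP list, 1 in the total RNA library and 0 in the polyA m6A-ORL library.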

How the data were processed

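Peak lists of 4 captured libraries were used, and the 3 input samples were not analysed here. The deposited lists are BED files of 12 columns per the file headers (position, strand, blocks, Ensembl gene ID, score). The deposited score, read from its range (0 to 0.0081) as a p-value or q-value, ranked peaks within a list only. Per the submitters' processing notes, the tools were Trim Galore, STAR and HOMER (no role or version stated) and the build hg38. Caller, threshold, input and the handling of multi-mapping reads are not given in the sources. Read depth is unknown.

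Duplicate lines were removed (4, 3, 2 and 1). RefSeq (GRCh38.p14) carries no Ensembl IDs, so 0 of 13566 IDs matched by ID. An ID took the gene holding at least 50% of its peaks' bases, on the gene's strand where that was known. Among genes holding at least 90% the shortest was taken. A gene kept 1 ID, by larger share and then more bases. This placed 12099 IDs. Strand came from the RefSeq start windows, and for 7 members from their peaks. The windows gave no strand for 4213 protein-coding genes, and there an ID on either strand was accepted. Gene spans follow the longest annotated extent, so distances to start and end depend on RefSeq.

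Some members are counted but not reported by name here. Members were named, with positions for those in 4 lists and the 8 others with the best rank. Members, lists and tests were chosen with earlier results of these data known. Library means were compared by exact two-sided permutation. Alternatives were assignment by span, better-scored peaks, equal list length, no snoRNA peaks, other start windows, other overlap, each replicate left out, replicate pairs and, chosen after seeing the data, no pseudogene peaks. The assignment was tested on simulated data, with single-block peaks in protein-coding genes of known strand. The shortest genes, genes without a strand and peaks of several blocks were not simulated, so the test does not cover such members. Python 3.11.15, pandas 2.3.3, numpy 2.4.6 and scipy 1.17.1 were used.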

Additional observations from a re-analysis of the deposited data

How the results depend on the processing

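The differences between methods in members (16.5 to 18 under the other assignments, filters and lists of equal length, 12.5 in the better-scored 50% of each list), in peaks (16.5 to 25) and in the share near the gene start kept their direction in every alternative run. Leaving out each replicate gave 17 members each time, 19.5 to 26.5 peaks and 20 to 39.1 points. The start difference was 19.7 points within 100 nt, 43.9 within 500 nt and 0.906 in the first 10% of the span. Members in both MeRIP libraries fell from 2 to 1 (RPS24) in the better-scored 50%, at equal list length and without pseudogene peaks. Members in both m6A-ORL libraries fell from 13 to 6 in the better-scored 50%, and were 12 by span, where RPS28 lost its total RNA peak. Overlapping m6A-ORL peaks fell from 2 to 0 when 50% of the shorter peak had to overlap, and to 1 in the better-scored 50%, where overlapping MeRIP peaks fell from 3 to 1. With the replicate numbers as a block, the differences were 17 members, 23 peaks and 29.6 points (exact sign-flip p = 0.5, the smallest that 2 pairs allow), and the numbers pair libraries of unlike RNA. The number of peaks limits every share here.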
